A study of Homo sapiens with 8 samples.

Results

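Glutathione transferases are enzymes that join glutathione, the main small thiol of the cell, to reactive compounds, and some of them also reduce peroxides. The genes described here were 7 transferases taken by name from the 60718 genes of the count table: MGST1, MGST2 and MGST3 of the microsomal class, GSTA1 of the alpha class, GSTK1 of the kappa class, GSTO1 of the omega class and GSTZ1 of the zeta class. The set was chosen by measured values: MGST1 was selected on its near loss in METTL5-KO, in input RNA and footprints, and is described without a test. The other 6 were listed by class and not by their own change, but with earlier results of these data known. Of the 7, 6 were also among the 11244 genes with translation efficiency (TE) values. GSTA1 was not among them. Every gene with TE values had at least 1 read in each library, so genes wholly absent from a library are not ranked in footprints or TE.

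The microsomal enzymes are small membrane proteins of the MAPEG superfamily, which sit in the endoplasmic reticulum and the outer mitochondrial membrane. MGST1 conjugates glutathione and reduces lipid hydroperoxides, while MGST2 and MGST3 also act on leukotriene precursors. PTGES, LTC4S and ALOX5AP, which serve prostaglandin E2 and leukotriene synthesis, are relatives in the same superfamily. The alpha, mu, pi, omega and zeta classes are soluble, and the kappa enzyme GSTK1 is found in mitochondria and peroxisomes. GSTO1 reduces dehydroascorbate, and GSTZ1 is maleylacetoacetate isomerase of tyrosine breakdown. In liver, GSTA1 is normally one of the most abundant soluble transferases.

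TE compares footprints with message, so the bases around each start codon are shown first, as the part of the message where initiation takes place. Each line runs from 9 bases before the start codon to the base after it, read from the canonical GENCODE transcript on hg38, with the base 3 before the codon, the ATG and the base after it in capitals.
MGST1: attgaaAaaATGG
MGST2: gtgagaAagATGG
MGST3: agacgcAagATGG
GSTK1: gcctgcAgcATGG
GSTO1: tgcgccAcgATGT
GSTZ1: aagtgcCagATGC
The 3 microsomal genes and GSTK1 carried both an A at the first marked position and a G after the codon. GSTO1 carried an A but no G, and GSTZ1 carried neither. A purine and a G at these positions were found in 47.32% of 11123 genes of the TE table, so the arrangement is common.

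Ribosome profiling was done in the hepatocellular line HepG2 with an intact METTL5 gene (METTL5-WT) or after CRISPR/Cas9 deletion across some of its exons (METTL5-KO). The gene encodes the methyltransferase that places N6-methyladenosine on 18S rRNA. All cells, of both genotypes, were exposed to cycloheximide at 100 µg/mL for 7 min, which arrests ribosomes on the message. From each of 2 lysates per genotype, a portion served as input RNA, and micrococcal nuclease digestion of the remainder left ribosome-protected fragments (RPF), which gave 8 libraries in 4 groups of 2. The knockout lines were raised from isolated clones, and the clone behind each lysate is not given, so clone and genotype cannot be told apart. Nothing states that the replicates were separate cultures, so the p-values below measure the spread between these lysates, which may be technical.

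Input libraries held 10710226 to 15307257 counts over all genes counted, and 10062407 to 14371657 over the genes with TE values. Over the latter genes, RPF libraries held 3970779 to 4592443 reads in METTL5-WT and 8626705 to 9255921 in METTL5-KO. METTL5 itself fell from 490 and 542 input counts to 208 and 151, and from 158 and 226 RPF reads to 41 and 21. Its counts, which include exons outside the deletion, were thus reduced and not absent. The cell type named on the labels was not borne out by its markers. Of 10 hepatocyte genes, including ALB, AFP, APOA1 and HNF4A, 4 had 0 counts in all input libraries and 8 had at most 3 in any of them, and the summed counts of the list were 4 to 6 in METTL5-WT and 6 to 12 in METTL5-KO. The summed counts of 4 fibroblast genes were 3607 to 3830 in METTL5-WT and 3261 to 4201 in METTL5-KO, but the list was uneven. In METTL5-WT, COL3A1 alone had 3317 and 3042 counts, against 83 and 80 for PDGFRB and 1 and 1 for LUM. LUM had 7 and 14 in METTL5-KO. Blood genes summed to at most 1 and endothelial genes to at most 14. What this means for the values below was not tested, and the cells are called by their genotype only. The METTL5-KO input replicates also differed along coding GC content (rank correlation of their difference with GC −0.57 across 11220 genes), against −0.07 in METTL5-WT input and 0.10 and −0.13 in METTL5-WT and METTL5-KO RPF.

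MGST1 was a well expressed gene in METTL5-WT and close to absent in METTL5-KO. MGST1 (ENSG00000008394) is annotated on chromosome 12 from 16347142 to 16609259 on the plus strand of hg38. It had 2071 and 1848 input counts in METTL5-WT against 1 and 12 in METTL5-KO. It had 778 and 806 RPF reads in METTL5-WT against 45 and 23 in METTL5-KO. Both METTL5-KO libraries thus lay far below both METTL5-WT libraries at either level, and the lysate with fewer input counts was the one with more footprints. In bulk libraries, fewer expressing cells and less RNA per cell cannot be told apart.

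After scaling for depth, pooled METTL5-KO input stood at 0.261% of METTL5-WT (95% exact interval 0.139 to 0.447), and pooled RPF at 2.29% (1.77 to 2.92). These intervals cover counting error only, and the input replicates taken alone gave 0.0442% and 0.442%. The fitted log2 fold change was −8.57 in input, the lowest of 14054 genes tested, and −5.49 in RPF, the second lowest of 11240. Without METTL5-KO replicate 2, which held 12 of its 13 METTL5-KO counts, the input value was −10.97. The log2 TE, which is the log2 ratio of normalized RPF to normalized input, was 0.39 and 0.30 in METTL5-WT against 6.49 and 2.09 in METTL5-KO. The means of these ratios were 0.35 in METTL5-WT and 4.29 in METTL5-KO. The fitted TE difference was 3.17, from values with 1 added before the log. That difference rested on 13 METTL5-KO input counts, and the METTL5-KO ratios were farther apart than it. LMO3, a gene on the opposite strand whose span overlaps that of MGST1, had 2 to 14 input counts in any library. In the plot of normalized reads by library, MGST1 was the only member whose METTL5-KO points lay below its METTL5-WT points.

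**Figure D1:**
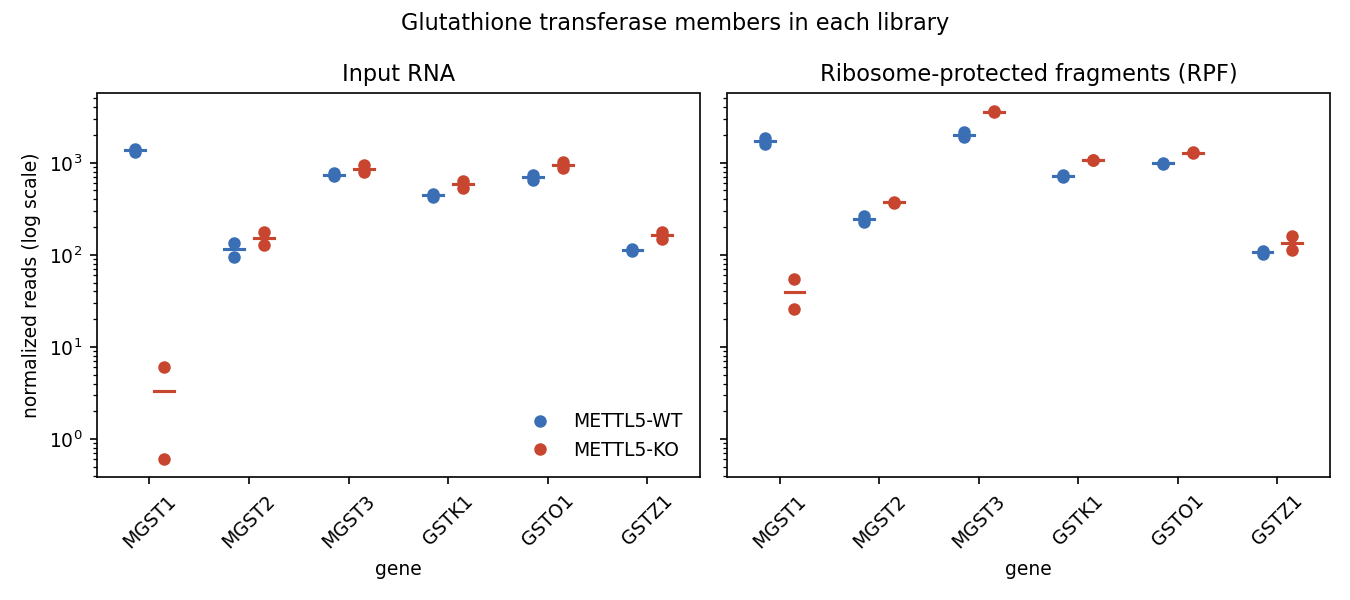
Normalized reads on a log axis for the 6 members with TE values, input RNA on the left and RPF on the right; each point is a library and each bar the mean of 2. MGST1 drops from 1410 and 1313 to 0.603 and 6.02 in input. The METTL5-KO points of MGST3, GSTK1, GSTO1 and GSTZ1 lie above their METTL5-WT points in both panels. How many of all genes separate in this way was not counted, and the RPF difference of GSTZ1 did not pass (limma adjusted p = 0.298).

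Of the other microsomal genes, MGST3 had more footprints in METTL5-KO, beyond its RNA. MGST3 (ENSG00000143198, chromosome 1, 165631213 to 165661796, plus strand) had normalized input values of 724 and 766 in METTL5-WT against 785 and 942 in METTL5-KO. Its normalized RPF values were 2157 and 1893 in METTL5-WT against 3660 and 3524 in METTL5-KO. The groups did not overlap at either level, and the RPF groups were much farther apart than their replicates. With 2 libraries per group, unchanged genes can also separate, and the share of all genes that did was not counted. The input difference of MGST3 did not pass (log2 fold change 0.20 ± 0.12, SE, edgeR adjusted p = 0.261), whereas its RPF rose by 0.83 ± 0.11 on the log2 scale (SE, limma adjusted p = 4.18e-05, edgeR adjusted p = 2.31e-06). Its log2 TE was 1.57 and 1.31 in METTL5-WT against 2.22 and 1.90 in METTL5-KO, again without overlap. That TE rise was 0.62 ± 0.16 on the log2 scale (SE, limma adjusted p = 0.0351, edgeR adjusted p = 0.0246, limma adjusted p = 0.0178 with the lysate as a block). It was no longer called after the GC trend was removed (0.55, limma adjusted p = 0.0541), nor when any lysate was left out (0.46 to 0.78, limma adjusted p = 0.0634 to 0.228).

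MGST2 was the lowest of the microsomal trio in METTL5-WT and narrowly passed the test in footprints. MGST2 (ENSG00000085871, chromosome 4, 139665768 to 139740745, plus strand) had normalized input values of 95.3 and 136 in METTL5-WT against 128 and 177 in METTL5-KO, so the groups overlapped. Its RPF values of 228 and 265 in METTL5-WT against 379 and 362 in METTL5-KO did not overlap. The input change did not pass (log2 fold change 0.39 ± 0.20, SE, edgeR adjusted p = 0.165), and the RPF rise was 0.59 ± 0.21 (SE, limma adjusted p = 0.0449, edgeR adjusted p = 0.0368). Leaving out METTL5-WT replicate 1 or either METTL5-KO lysate ended that RPF call (limma adjusted p = 0.128, 0.179 and 0.144), as did removing the GC trend (0.50, limma adjusted p = 0.0966) or the variance trend (limma adjusted p = 0.109). The TE difference of MGST2 was 0.19 ± 0.30 (SE, limma adjusted p = 0.758) and became −0.00 with the GC trend removed.

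GSTK1, GSTO1 and GSTZ1 were called higher in METTL5-KO input, each call lost without either METTL5-WT replicate (edgeR adjusted p = 0.143 to 0.429). GSTK1 (ENSG00000197448, chromosome 7, 143244093 to 143270854, plus strand) had normalized input values of 461 and 425 in METTL5-WT against 526 and 638 in METTL5-KO, and RPF values of 732 and 708 against 1062 and 1077. Its groups did not overlap at either level. Input rose by 0.38 ± 0.13 on the log2 scale (SE, edgeR adjusted p = 0.037) and RPF by 0.57 ± 0.12 (SE, limma adjusted p = 0.00226, edgeR adjusted p = 0.00168), and the RPF call held with any of the 4 lysates left out. TE of GSTK1 differed by 0.18 ± 0.17 (SE, limma adjusted p = 0.564).

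Per kb of exon, GSTO1 had the highest input level of the members, and GSTZ1 the lowest in METTL5-WT among those tested. This order depends on the merged exon lengths. Not divided by length, mean METTL5-WT input was higher for MGST1 (1362) and MGST3 (745) than for GSTO1 (697). GSTZ1 (114) and MGST2 (116) were then alike. GSTO1 (ENSG00000148834, chromosome 10, 104235356 to 104267459, plus strand) had normalized input values of 741 and 653 in METTL5-WT against 1025 and 870 in METTL5-KO, and RPF values of 979 and 1005 against 1264 and 1296. Input rose by 0.43 ± 0.12 on the log2 scale (SE, edgeR adjusted p = 0.0145) and RPF by 0.37 ± 0.11 (SE, limma adjusted p = 0.0229, edgeR adjusted p = 0.0312), while TE differed by −0.07 ± 0.16 (SE, limma adjusted p = 0.835). Leaving out any lysate ended the RPF call of GSTO1 (limma adjusted p = 0.0597 to 0.113), at log2 fold changes of 0.35 to 0.39.

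GSTZ1 (ENSG00000100577, chromosome 14, 77320996 to 77331597, plus strand) had normalized input values of 117 and 111 in METTL5-WT against 149 and 179 in METTL5-KO. Its RPF values were 102 and 110 in METTL5-WT against 113 and 158 in METTL5-KO, from only 43 and 55 reads in the shallower METTL5-WT libraries. Neither level showed overlap, which unchanged genes can also show with 2 libraries per group, and the METTL5-KO footprints spread widely. Input rose by 0.51 ± 0.18 (SE, edgeR adjusted p = 0.0376), and the RPF difference of 0.33 ± 0.23 (SE, limma adjusted p = 0.298) and the TE difference of −0.18 ± 0.33 (SE, limma adjusted p = 0.786) did not pass. GSTA1 (ENSG00000243955, chromosome 6, 52791371 to 52803860, minus strand) had 0 and 0 input counts in METTL5-WT against 2 and 0 in METTL5-KO, at or under the floor of 3 counts, and was not tested.

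Counted together, 5 members other than MGST1 could be tested. In input 3 of the 5 rose and 0 fell, beside 11.8% of all tested genes called higher and 10.6% called lower. In RPF 4 of the 5 rose and 0 fell, by limma, edgeR and DESeq2, and 0 were lower at an unadjusted p under 0.05, beside 16.2% higher and 13.1% lower. In TE 1 of the 5, MGST3, rose and 0 fell, by limma, edgeR and DESeq2, beside 2.7% higher and 2.08% lower. The median log2 fold changes of the 5 were 0.39, 0.57 and 0.18 in input, RPF and TE, against −0.00, 0.02 and 0.02 over all genes tested. The input count rested on single libraries: it was 0 without either METTL5-WT replicate, 5 without METTL5-KO replicate 1 and 1 without METTL5-KO replicate 2, and DESeq2 called 1, which was GSTO1. Because the list was drawn up with results in view, nothing beyond these members is read from the counts.

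**Figure D2:**
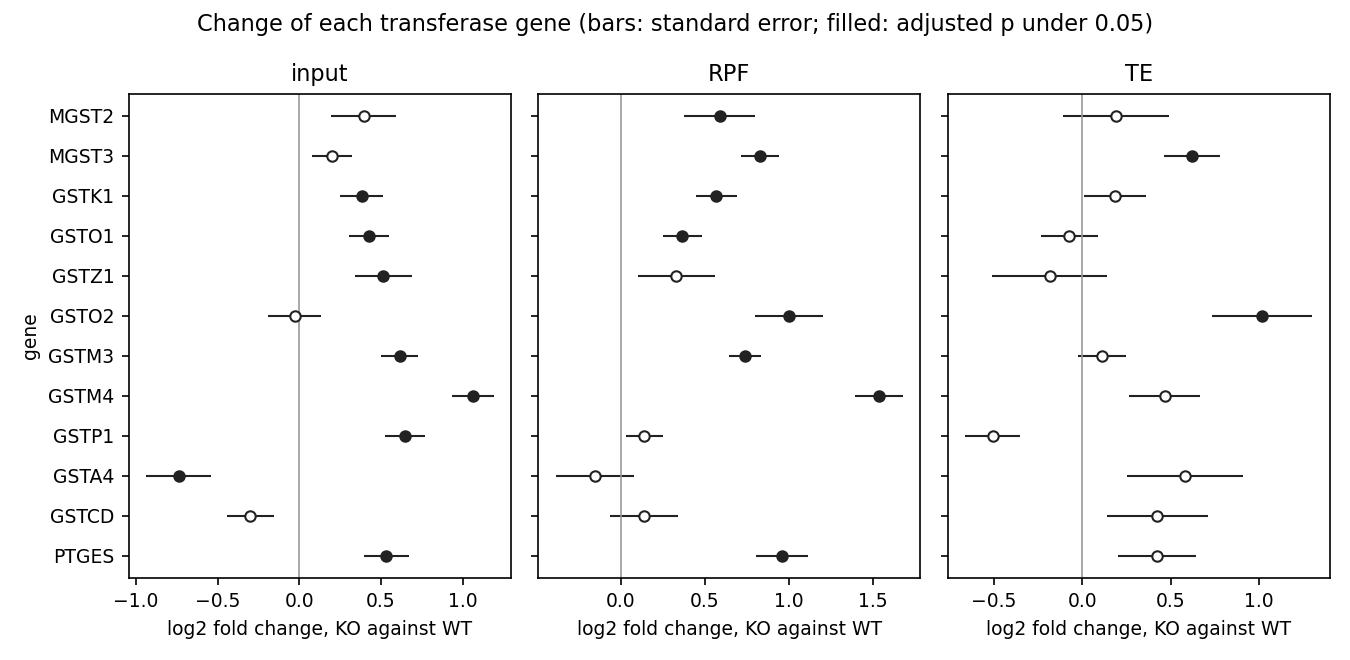
Log2 fold change of METTL5-KO against METTL5-WT for 12 transferase genes in input (edgeR), RPF and TE (limma); bars are standard errors and filled points have an adjusted p under 0.05. MGST2 to GSTZ1 all lie above 0 in input and RPF, and in TE only MGST3 and GSTO2 are filled, at 0.62 and 1.02.

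Levels of different genes were compared per kb, of coding length for RPF and of merged exon length for input. Per kb, RPF levels in METTL5-WT followed the order MGST3 (4441 ± 409, SD, n = 2), MGST1 (3726 ± 353), GSTO1 (1372 ± 25.4), GSTK1 (1062 ± 24.8), MGST2 (559 ± 58.8) and GSTZ1 (164 ± 8.89). The order was the same in METTL5-KO for the other genes, from MGST3 at 7877 ± 212 to GSTZ1 at 210 ± 49.1, with MGST1 now last at 85.9 ± 43.5. The replicate ranges of neighbours in these orders did not overlap. In footprints per kb, MGST1 thus moved from second to last among the members with TE values. In input, GSTO1 led MGST1 in METTL5-WT, at 412 ± 37.0 and 183 ± 9.21 per kb, and the METTL5-KO levels of MGST1 and GSTA1, 0.445 ± 0.515 and 0.478 ± 0.676, overlapped. Merged exon lengths include exons of all annotated transcripts, so input levels per kb of genes with many transcripts are understated. The merged length was 1691 bases for GSTO1 and 7441 for MGST1, and without division by length MGST1 led GSTO1 in METTL5-WT.

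The footprints of the microsomal trio summed to a similar level in both genotypes although their RNA did not. The summed RPF level of MGST1, MGST2 and MGST3 per kb was 9223 and 8228 in METTL5-WT against 9002 and 8604 in METTL5-KO, which overlapped. The summed input level was 310 and 314 in METTL5-WT against 138 and 174 in METTL5-KO, a ratio of 0.499. MGST1 made up 42.7% ± 0.602 (SD, n = 2) of the RPF sum in METTL5-WT and 0.969% ± 0.463 in METTL5-KO, and 58.7% ± 3.60 and 0.263% ± 0.288 of the input sum. Without MGST1 the RPF sum was 5000 ± 351 (SD, n = 2) in METTL5-WT and 8717 ± 238 in METTL5-KO, most of it MGST3. The gap between RNA and footprints belongs to this trio, which holds the gene selected for its loss, and was not seen in wider sets. Over the 7 members, the ratio of METTL5-KO to METTL5-WT sums was 1.037 in input and 1.092 in RPF, the latter over 6 genes. Over all transferase genes listed, the ratio was 1.359 in input (25 genes) and 1.299 in RPF (14 genes). All these sums are relative to each library's other genes and say nothing of total protein. No test was made on them.

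**Figure D3:**
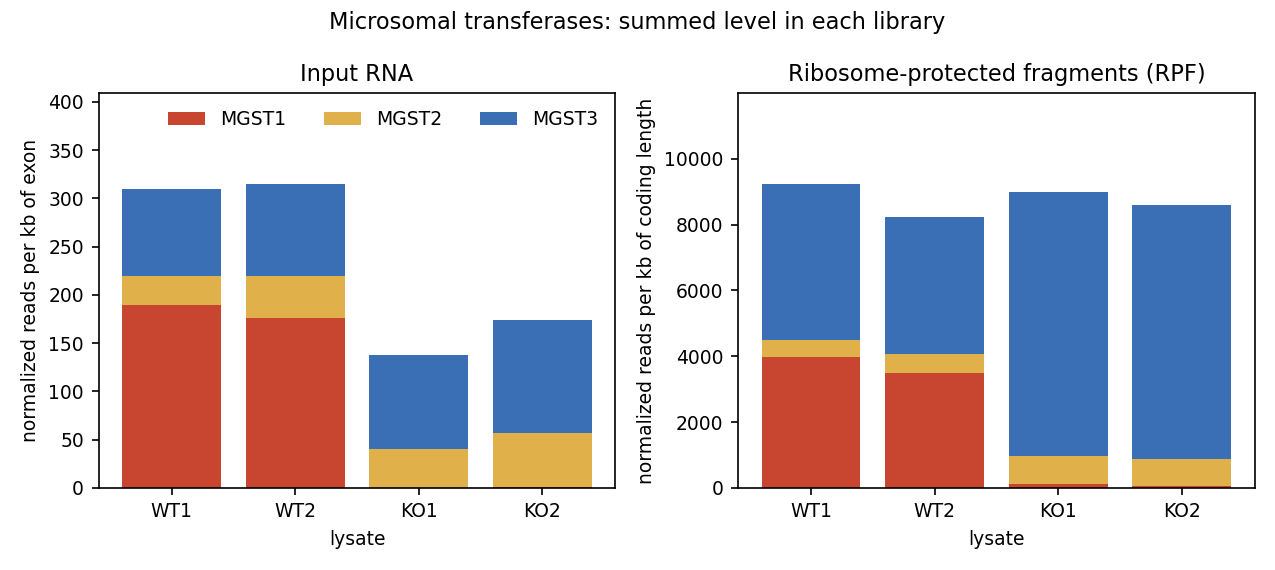
Normalized reads per kb of the 3 microsomal genes stacked in each lysate, input on the left and RPF on the right, without error bars since each bar is a single library. The MGST1 share is lost in METTL5-KO, and the RPF bars stay between 8228 and 9223 while the input bars fall from at least 310 to at most 174.

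The wider transferase family was examined next, as 19 further genes of the same superfamilies. In input, 9 of the 19 could be tested, of which GSTM3, GSTM4, GSTP1 and PTGES rose and GSTA3 and GSTA4 fell, beside 11.8% of all tested genes higher and 10.6% lower. In RPF, 8 could be tested, of which GSTM3, GSTM4, GSTO2 and PTGES rose and 0 fell (0 also by edgeR, by DESeq2 and at an unadjusted p under 0.05), beside 16.2% higher and 13.1% lower. In TE, GSTO2 rose, beside 2.7% higher. The median log2 fold changes were −0.03 in input, also with GSTA3 set to its bound, 0.44 in RPF and 0.42 in TE. The 9 tested in input thus moved in both directions.

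GSTM3, a mu class enzyme, had the most input counts of the family, with normalized input values of 2252 and 2252 in METTL5-WT against 3467 and 3498 in METTL5-KO, and RPF values of 4402 and 4853 against 7461 and 8005. GSTM4 showed the largest rise, from 297 and 286 to 599 and 629 in input (log2 fold change 1.06 ± 0.13, SE, edgeR adjusted p = 1.24e-06) and from 352 and 269 to 872 and 920 in RPF (1.54 ± 0.14, SE, limma adjusted p = 5.28e-07, edgeR adjusted p = 1.86e-09). Mu class genes are neighbours of similar sequence on chromosome 1, so the split of reads among them is uncertain. PTGES, the microsomal prostaglandin E synthase and a MAPEG relative of MGST1, went from 349 and 415 to 497 and 615 in input (0.53 ± 0.14, SE, edgeR adjusted p = 0.00644) and from 238 and 203 to 444 and 414 in RPF (0.96 ± 0.16, SE, limma adjusted p = 0.000226, edgeR adjusted p = 9.92e-05). Their relatives LTC4S and ALOX5AP had at most 4 and 2 input counts. The input calls of GSTM3 and PTGES depended on METTL5-WT libraries: GSTM3 (0.62 ± 0.11, SE, edgeR adjusted p = 0.00028) was lost without replicate 1 or 2 of METTL5-WT (edgeR adjusted p = 0.0727 and 0.0625), and PTGES without replicate 1 (edgeR adjusted p = 0.303). The RPF rise of GSTM3 was 0.74 ± 0.10 (SE, limma adjusted p = 2.73e-05, edgeR adjusted p = 4.6e-06).

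GSTP1 rose in input and was not called in RPF, and GSTO2 rose in RPF and was not called in input. GSTP1, the pi class enzyme typical of many cultured cells, had normalized input values of 1791 and 1733 in METTL5-WT against 2458 and 3105 in METTL5-KO, while its RPF values were 4153 and 3929 against 4380 and 4534. Its input rose by 0.65 ± 0.12 (SE, edgeR adjusted p = 0.000465), its RPF difference was 0.14 ± 0.11 (SE, limma adjusted p = 0.356), and its TE difference was −0.51 ± 0.15 (SE, limma adjusted p = 0.0687, edgeR adjusted p = 0.0348, limma adjusted p = 0.0338 with the lysate as a block). With the GC trend removed, the TE difference of GSTP1 was −0.26 (limma adjusted p = 0.24) and its RPF was called higher (0.24, limma adjusted p = 0.0333). GSTO2, the omega class relative that lies next to GSTO1 on chromosome 10, had input values of 157 and 162 in METTL5-WT against 151 and 165 in METTL5-KO, and RPF values of 92.7 and 102 against 207 and 185. Its RPF rose by 1.00 ± 0.20 (SE, limma adjusted p = 0.00133, edgeR adjusted p = 0.00153) and its TE by 1.02 ± 0.28 (SE, limma adjusted p = 0.0482, edgeR adjusted p = 0.0373, limma adjusted p = 0.0504 with the lysate as a block, limma adjusted p = 0.0767 with the GC trend removed). GSTO2 sat at the threshold in TE and was not called with any lysate left out (limma adjusted p = 0.095 to 0.216), and the input call of GSTP1 was lost without METTL5-WT replicate 2 (edgeR adjusted p = 0.0577). The TE difference of GSTO1 beside it was −0.07, and the contrast between the omega genes was not tested.

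Among the alpha class, GSTA4, which acts on lipid aldehydes such as 4-hydroxynonenal, fell in input from 125 and 136 to 69.3 and 87.9 (log2 fold change −0.74 ± 0.20, SE, edgeR adjusted p = 0.00848), and its RPF values of 124 and 150 against 118 and 127 overlapped. The input call of GSTA4 was lost without METTL5-WT replicate 2 (edgeR adjusted p = 0.11). GSTA3 had 15 and 14 input counts in METTL5-WT against 0 and 0 in METTL5-KO (edgeR adjusted p = 0.000358), at least 6.08-fold lower with the floor set at 3 counts per library. GSTA2, GSTA5, GSTM5, GSTT2 and HPGDS had 0 counts in every input library, GSTM1 at most 5 and GSTM2 at most 1. GSTT2B, whose near-identical copy is GSTT2, had 8 to 16 counts, and GSTCD 411 to 447, and neither was called at any level. GSTT1 was not analysed here.

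Many transferase promoters are described as holding an antioxidant response element, so the core TGACNNNGC was searched on both strands in the 250 bases before each RefSeq start (GRCh38.p14). Such a core was found in 10.91% of 35116 windows and in 7 of the 26 windows of 22 family genes that were matched. Among the members it was found only before GSTO1, at 2 places, and in none of the 3 windows of MGST1, while MGST2 had no window to search. GSTO1 and GSTP1 are shown because both rose in input, with the matched core in capitals and 10 bases on each side, all on the plus strand. The first and second lines lie at chr10:104254656-104254684 and chr10:104254721-104254749, and the last at chr11:67583736-67583764.
GSTO1, 226 before the start: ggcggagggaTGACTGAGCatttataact
GSTO1, 161 before the start: cgagatgcttTGACACAGCcccttaagat
GSTP1, 66 before the start: gccggcgccgTGACTCAGCactggggcgg
GSTM3, GSTM4, GSTK1, GSTZ1 and PTGES rose in input with no such letters in their windows, and GSTA4, which fell in input, had a core 9 bases before its start. A match is a run of letters, not a bound site.

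Genes that supply and use glutathione were counted from lists of the pathway, to be read beside the shares of all tested genes. For input, 11.8% were higher and 10.6% lower. The shares for RPF were 16.2% higher and 13.1% lower. Those for TE were 2.7% higher and 2.08% lower. Of 16 genes for synthesis, supply and turnover, 11 could be tested: 4 rose and 2 fell in input, 4 rose and 1 fell in RPF, and 1 rose in TE. SLC7A11, the cystine importer, rose by 1.49 ± 0.12 in input (SE, edgeR adjusted p = 1.81e-09) and by 1.76 ± 0.12 in RPF (SE, limma adjusted p = 1.01e-08). GCLC, the catalytic subunit of the enzyme for the first step of glutathione synthesis, rose by 1.25 ± 0.13 in input (SE, edgeR adjusted p = 8.9e-08) and by 1.54 ± 0.12 in RPF (SE, limma adjusted p = 6.74e-08). CHAC1, which degrades glutathione, rose by 0.83 ± 0.27 in input (SE, edgeR adjusted p = 0.0295), and GGT7, of the gamma-glutamyltransferase family, fell by 1.42 in RPF (SE 0.48, limma adjusted p = 0.0331). Both of these calls were lost without METTL5-WT replicate 1 (edgeR adjusted p = 0.16 for CHAC1, limma adjusted p = 0.155 for GGT7), CHAC1 also without METTL5-WT replicate 2 or METTL5-KO replicate 2 (edgeR adjusted p = 0.116 and 0.143), and GGT7 also without METTL5-KO replicate 1 (limma adjusted p = 0.373).

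Of 17 genes for glutathione redox cycling and its reductant supply, 14 could be tested. In input 6 rose and 1 fell, beside 11.8% of all tested genes higher and 10.6% lower. In RPF 9 rose and 1 fell, beside 16.2% higher and 13.1% lower. In TE 2 rose, beside 2.7% higher. GSR, which regenerates reduced glutathione, rose by 0.68 ± 0.11 in input (SE, edgeR adjusted p = 0.000107) and by 1.17 ± 0.10 in RPF (SE, limma adjusted p = 2.6e-07), and PGD, which makes NADPH, rose by 0.86 ± 0.12 in input (SE, edgeR adjusted p = 1.15e-05) and by 1.17 ± 0.11 in RPF (SE, limma adjusted p = 1.13e-06). PRDX6, a peroxidase that uses glutathione and, like MGST1, reduces lipid hydroperoxides, rose by 0.94 ± 0.10 in RPF (SE, limma adjusted p = 2.5e-06) and by 0.64 ± 0.14 in TE (SE, limma adjusted p = 0.0162, edgeR adjusted p = 0.0119). GPX8, a peroxidase of the endoplasmic reticulum, fell by 0.36 in input (SE 0.12, edgeR adjusted p = 0.0421) but rose by 0.67 ± 0.12 in RPF (SE, limma adjusted p = 0.000484) and by 1.02 ± 0.17 in TE (SE, limma adjusted p = 0.00419, edgeR adjusted p = 0.000686). PRDX6 lost its TE call with any lysate left out (limma adjusted p = 0.0572 to 0.123) and GPX8 without METTL5-KO replicate 2 (limma adjusted p = 0.0967), and the input call of GPX8 was lost without either METTL5-WT replicate or METTL5-KO replicate 2 (edgeR adjusted p = 0.099 to 0.422).

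Of 7 other enzymes that use glutathione, 0 were called in input by edgeR or DESeq2 (2 higher and 1 lower at an unadjusted p under 0.05), 3 rose in RPF (2 by edgeR) and 2 rose in TE. The TE rises were ESD, at 0.62 ± 0.17 (SE, limma adjusted p = 0.047), and GLO1 of methylglyoxal detoxification, at 0.52 ± 0.14 (SE, limma adjusted p = 0.0472). Both were lost once the GC trend was removed (limma adjusted p = 0.234 and 0.154), and with any lysate left out (limma adjusted p = 0.0548 to 0.339). Of 10 genes for export of conjugates and transport of glutathione, 2 rose and 1 fell in input, 2 rose and 2 fell in RPF (3 by edgeR), near the shares of all genes, and 0 were called in TE by limma, edgeR or DESeq2 (1 higher and 1 lower at an unadjusted p under 0.05). Among them the conjugate pump ABCC2 rose in input by 0.56 ± 0.11 (SE, edgeR adjusted p = 0.000879), and SLC25A39, which carries glutathione into mitochondria, rose in input by 0.58 ± 0.13 (SE, edgeR adjusted p = 0.00238), and both were lost without either METTL5-WT replicate (edgeR adjusted p = 0.068 to 0.134). SLC25A40, its relative, rose in RPF by 0.81 ± 0.18 (SE, limma adjusted p = 0.00277), and ABCC10 fell in RPF by 0.78 (SE 0.21, limma adjusted p = 0.00998), the latter lost without replicate 1 of METTL5-WT or METTL5-KO (limma adjusted p = 0.0723 and 0.071). The median log2 fold changes of these 4 lists in input, RPF and TE were 0.21, 0.51 and 0.25 for synthesis, 0.22, 0.42 and 0.34 for redox cycling, 0.05, 0.34 and 0.25 for other users, and 0.02, 0.15 and −0.13 for export.

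Genes around MGST1 on chromosome 12 were examined in input, taken by start position, 5 on each side of the MGST1 start that passed the filter on low counts. On the opposite strand, SUPT16HP1 lies inside the MGST1 span and LMO3 overlaps it. On the side of lower coordinates 4 of the 5 fell, beside 10.6% of all tested genes called lower and 11.8% called higher in input. RERG, a Ras-like GTPase, had 431 and 424 counts in METTL5-WT against 90 and 109 in METTL5-KO (log2 fold change −2.46 ± 0.17, SE, edgeR adjusted p = 1.72e-10). ARHGDIB had 19 and 14 counts against 3 and 4 (−2.55 ± 0.68, SE, edgeR adjusted p = 0.00868). STRAP and DERA, the nearest genes on this side, fell less, with log2 fold changes of −0.56 ± 0.11 (SE, edgeR adjusted p = 0.000788) and −0.81 ± 0.14 (SE, edgeR adjusted p = 0.000172), and EPS8 between them and RERG was not called (−0.14 ± 0.20, SE, edgeR adjusted p = 0.659). On the side of higher coordinates SUPT16HP1, LMO3, EEF1A1P16, PLEKHA5 and RN7SL67P were not called (edgeR adjusted p = 0.356 to 0.959), 3 of them pseudogenes or small RNA copies and all but PLEKHA5 with at most 52 counts. ARHGDIB was not called with any library left out (edgeR adjusted p = 0.059 to 0.195), and STRAP not without either METTL5-WT replicate (edgeR adjusted p = 0.0884 and 0.0992). The lowest value among the neighbours was −2.55, against −8.57 for MGST1.

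**Figure D4:**
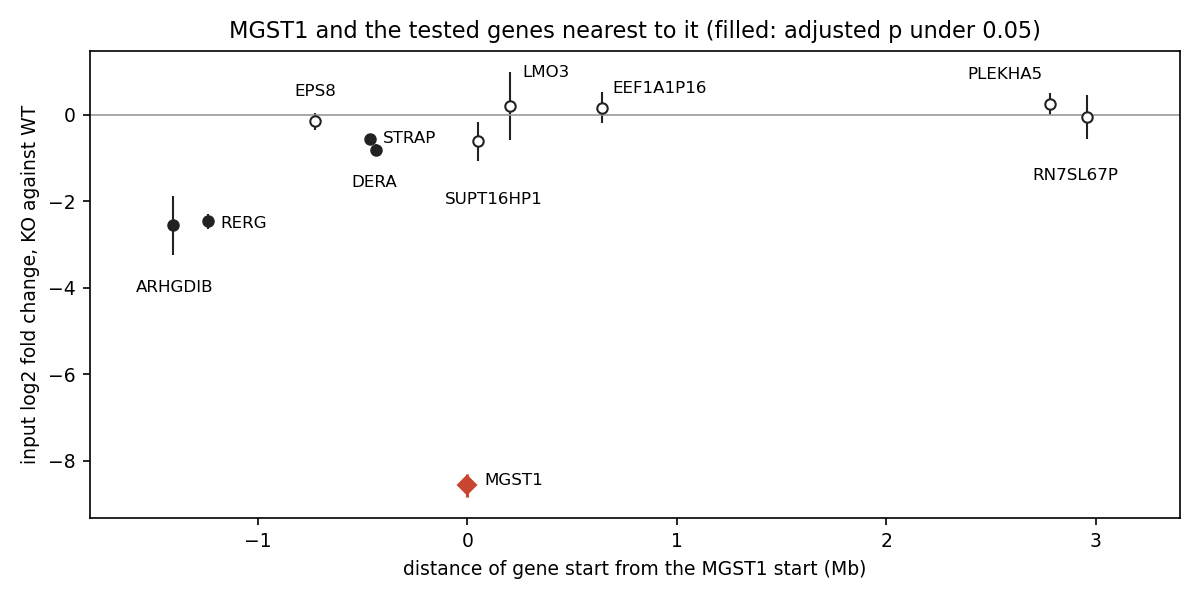
Input log2 fold change against the distance in Mb of each gene's start from the MGST1 start, for MGST1 (diamond) and the 10 tested genes nearest to it; bars are standard errors and filled circles have an adjusted p under 0.05. MGST1 lies at −8.57, the 4 filled neighbours lie at −0.56 to −2.55 on the side of lower coordinates, and no neighbour on the other side is filled. Over all genes tested in input, 10.6% were called lower and 11.8% higher.

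The genes whose pattern over the 8 libraries was closest to MGST1 were sought among the other 11243 genes of the TE table, by the Euclidean distance between log2(value + 1) profiles, each taken relative to the METTL5-WT mean of its library type. They were TMEM47 (distance 4.54), A2M (5.39), PTGS1 (5.73), ZNF831 (6.97) and MYPN (8.26). TMEM47 had 143 and 175 input counts against 1 and 1, and A2M, a protease inhibitor on chromosome 12 at 9067664 to 9116229, had 830 and 723 against 31 and 19. PTGS1, a cyclooxygenase, had 377 and 388 input counts in METTL5-WT against 16 and 13 in METTL5-KO, and 89 and 103 RPF reads against 2 and 2. Only TMEM47 among the 5 shared with MGST1 higher log2 TE in both METTL5-KO lysates. For TMEM47 this came from 1 input count in each, and for MGST1 from 1 and 12. These genes were picked for their fall, from genes with at least 1 read in every library, and are listed as values.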

How the data were processed

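Input RNA and RPF libraries of METTL5-WT and METTL5-KO cells were grouped by their titles. For input, the authors deposited raw read counts per gene, made with STAR 2.7.3a on hg38 and featureCounts, by strand (version 1.6.0 per the labels, 2.0.1 per the file header). The signal of the TE table, deposited under the name RPKM, proved to be whole reads times a constant per library in 100% of cases (tolerance 0.01), without division by gene length. The log scale test planned for normalized values was kept as the main one, with count tests beside it. The log2 fold changes of TE and their p-values that the authors deposited, from RiboToolkit, were not used. 3 lines of a broken gene were left out.

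Input counts were tested with edgeR 4.0.16 (quasi-likelihood, TMM, filterByExpr), and RPF and TE with limma 3.58.1 (trend) on log2(value + 1), which understates changes of low genes, over genes averaging 1 or more in both library types. TE was the genotype by library type interaction over 8 libraries. RPF and TE fits kept all 4 groups for a shared spread. Adjusted p-values are Benjamini-Hochberg over all genes tested, two-sided, with a threshold of 0.05. DESeq2 1.42.0 and the GC trend (local regression, span 0.3, coding GC content known for 99.8% of genes) served as alternatives. The models were tested on simulated data. The main TE fit had no block, and a block on the lysate was an alternative. It was used because input and RPF libraries of the same number came from 1 lysate by protocol. The correlation between the deviations of such input and RPF libraries was −0.02 in METTL5-WT and 0.05 in METTL5-KO over 11240 genes. Depth sets the precision: METTL5-WT RPF libraries were the shallowest.

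The genes named were the 7 members, 19 family genes, at most 4 called genes of each of 4 glutathione lists by size of change, 5 tested neighbours on each side of the MGST1 start and the 5 nearest profiles. Members and lists were chosen with earlier results of these data known.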

Additional observations from a re-analysis of the deposited data

How the results depend on the processing

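Over all genes, input calls numbered 3149 (1220 to 5474 with a replicate left out, 2386 by DESeq2, 3554 with the replicate number as a block), RPF calls 3288 (1986 to 2772 with a lysate left out) and TE calls 538 (4 to 266 with a lysate left out). TE calls were 1 without the variance trend, 838 by DESeq2, 283 with the GC trend removed, 766 by edgeR, 588 with the replicate number as a block, 794 with the lysate as a block, and 436 with the lysate block and the GC trend removed, an alternative chosen after seeing the data. Quantile normalization called 486 in TE with 205 higher, against 304 of 538, and 3173 in RPF. Of the 5 tested members other than MGST1, the input count of 3 became 1 by DESeq2 and 0 to 5 with a replicate left out. The RPF count of 4 became 3 with the GC trend removed (MGST2 lost) and with quantile normalization (GSTO1 lost), 2 without the variance trend and 2 to 3 with a lysate left out. The TE count of 1 became 0 with the GC trend removed, with quantile normalization, without the variance trend and with any lysate left out, and stayed at 1 with the lysate block, with or without the GC trend. The replicate numbers do not link a METTL5-WT lysate to a METTL5-KO lysate (correlation of deviations 0.04 in input and −0.00 in RPF), and blocking on them left 3, 4 and 1 members called.

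Directions that reversed were of differences that were not called. In input these were GSTO2 without the low count filter (0.0019) and, over the libraries left out in turn, GSTO2 (−0.090 to 0.046), GSTT2B (−0.53 to 0.53), EPS8 (−0.28 to 0.0011), LMO3 (−0.84 to 1.90), EEF1A1P16 (−0.065 to 0.44) and RN7SL67P (−0.65 to 0.35). In RPF they were GSTT2B (−1.56 to 0.78) and GSTCD (−0.095 to 0.37) over the lysates left out. In TE they were MGST2 (−0.072 to 0.45), GSTO1 (−0.21 to 0.064) and GSTT2B (−1.91 to 1.13) over the lysates left out, GSTM3 with quantile normalization (−0.10), and MGST2 (−0.0026) and GSTM3 (−0.013) with the GC trend removed, with or without the lysate block. Beyond this, the lysate block, the number block, the fit without the variance trend and leaving out any lysate each ended the TE call of GSTO2, and the lysate block, edgeR, DESeq2 and quantile normalization each called GSTP1 lower in TE. Removing the GC trend ended the TE call of GSTO2 (adjusted p = 0.0767 by limma), called PTGES higher (0.76, adjusted p = 0.0448 by limma) and left GSTP1 at −0.26. The cause of these changes was not tested. The 13 METTL5-KO input counts of MGST1 limit its TE.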
